A study of Mus musculus with 20 samples.

Results

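The 10 transcription factors that set dendritic cell fate, Batf3, Irf8, Nfil3, Id2, Zeb2, Irf4, Klf4, Zbtb46, Bcl6 and Spi1, were followed by their RNA counts in sorted mouse type 1 conventional dendritic cells (cDC1s). They were chosen by name as known regulators of dendritic cell lineages and found by their Ensembl gene identifiers, and all 10 were present among the 47729, 54532 and 55487 genes of the 3 deposited tables. The study asked how the erythropoietin receptor, encoded by Epor, acts in cDC1s during immune tolerance. RNA was sequenced from 20 libraries in 8 groups, and groups were compared only within a table. In the first table were XCR1+CD8a+ cells sorted from WT C57BL/6 mice, 2 libraries from untreated mice and 2 taken at day 15 of a course called TLI/ATS, which joins irradiation of the lymphoid organs to serum against thymocytes, a regimen that depletes lymphocytes and favours tolerance. In the second table were XCR1+CD8a+ cells of EpoR-tdTomato reporter mice, all given TLI/ATS and taken at day 15, parted into EpoR+ and EpoR- cells with 2 libraries each. In the third table were SIRPa- cDC1s of mice with floxed Epor, with no treatment named: Eporflox/flox controls, for which no Cre is named, and Epor-Xcr1-Cre knockouts (cKO), in which Cre under Xcr1 control deletes Epor in XCR1-expressing cells, each from spleen (CCR7+XCR1+) and from peripheral lymph node (migratory XCR1+), 3 libraries per group. The sample labels give CCR7+ in both tissues and the design text gives it for spleen only, so a tissue comparison can also be a comparison of gates. Nothing in the labels says that replicates came from separate animals, so p-values measure the spread between these libraries.

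As background, conventional dendritic cells divide into cDC1s, which cross-present antigen to CD8 T cells, and cDC2s, which mainly prime CD4 T cells. Irf8 and Batf3 form the core of the cDC1 programme, Nfil3 acts upstream of it by restraining Zeb2, and Id2 inhibits E proteins. Zeb2, Irf4 and Klf4 favour cDC2, monocyte or plasmacytoid fates. Zbtb46 marks the conventional lineage, Bcl6 represses alternative programmes, and Spi1 encodes PU.1, the myeloid factor on which dendritic cells as a whole depend.

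Sequences before an annotated transcription start are shown for the 5 factors whose promoters held a searched motif. All 5 moved between the EpoR fractions or between tissues, but Klf4, Id2 and Nfil3, whose windows held no match, also moved between tissues. Such moves were common among all genes tested. By edgeR's test at an adjusted p of 0.05, 16.7% passed between the EpoR fractions, and 41.3% in controls and 29.4% in cKO between tissues. RefSeq promoters of GRCm38.p6 were at hand for 9 of the 10 genes, 14 promoters in all, each running from 250 bases before to 50 after a transcription start, and both strands were searched. Letters in capitals mark the STAT site TTCNNNGAA (GAS) in Batf3, Irf8, Bcl6 and Zeb2, and the AP-1 site TGANTCA and the E2-box CACCTG, which Zeb proteins bind, in Zbtb46. The 250 bases before 1 start of each gene read, 5′ to 3′:
Batf3, chr1:191098164-191098413, plus strand: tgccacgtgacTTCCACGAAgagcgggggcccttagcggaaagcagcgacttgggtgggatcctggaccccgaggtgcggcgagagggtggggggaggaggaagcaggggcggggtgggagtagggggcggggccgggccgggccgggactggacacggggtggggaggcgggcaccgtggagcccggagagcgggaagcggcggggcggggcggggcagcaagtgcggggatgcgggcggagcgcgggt
Irf8, chr8:120736108-120736357, plus strand: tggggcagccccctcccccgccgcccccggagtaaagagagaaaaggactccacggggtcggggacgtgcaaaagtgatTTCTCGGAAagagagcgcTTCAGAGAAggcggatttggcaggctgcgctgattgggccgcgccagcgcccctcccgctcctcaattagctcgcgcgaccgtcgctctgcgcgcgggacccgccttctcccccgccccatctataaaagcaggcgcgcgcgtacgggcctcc
Bcl6, chr16:23988853-23989102, minus strand: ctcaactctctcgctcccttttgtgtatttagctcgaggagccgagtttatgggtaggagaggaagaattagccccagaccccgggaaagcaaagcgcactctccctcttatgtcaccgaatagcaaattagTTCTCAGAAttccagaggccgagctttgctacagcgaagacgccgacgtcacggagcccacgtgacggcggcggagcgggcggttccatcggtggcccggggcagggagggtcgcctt
Zeb2, chr2:45113280-45113529, minus strand: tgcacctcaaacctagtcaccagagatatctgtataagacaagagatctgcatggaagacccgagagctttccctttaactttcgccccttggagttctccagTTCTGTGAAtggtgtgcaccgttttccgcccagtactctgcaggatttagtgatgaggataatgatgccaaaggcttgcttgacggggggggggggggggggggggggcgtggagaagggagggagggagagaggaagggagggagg
Zbtb46, chr2:181424389-181424638, minus strand: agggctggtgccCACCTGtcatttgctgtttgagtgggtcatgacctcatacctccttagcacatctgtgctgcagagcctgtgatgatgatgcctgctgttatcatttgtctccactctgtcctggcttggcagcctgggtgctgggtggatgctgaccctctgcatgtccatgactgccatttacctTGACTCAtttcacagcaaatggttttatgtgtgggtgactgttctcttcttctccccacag

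The GAS lay in 6 of the 14 promoters, those of 4 genes, against 8.3% of 32851 promoters in the table, and 2 of the 6 are overlapping Zeb2 windows that hold the same match. In Batf3 the match TTCCACGAA began 239 bases before the start, while Irf8 held TTCTCGGAA and TTCAGAGAA at 171 and 153 bases. Bcl6 held TTCTCAGAA at 118 bases and, in a second promoter not printed, 3 further matches. Zeb2 held TTCTGTGAA at 147 bases in the printed window. The Zeb2 window at the gene's annotated 5′ end, chr2:45117443-45117692, held none of the searched motifs. The AP-1 site occurred in Zbtb46 (TGACTCA at 61 bases) and in another Zeb2 promoter, against 7.81% of promoters, and the E2-box in Zbtb46 and in a second Irf8 promoter, against 20.2%. The printed windows of Batf3, Zeb2 and Zbtb46 lie inside the annotated genes. That of Zbtb46 lies far inside, since the gene's 5′ end is at chr2:181459426, and whether it acts as a promoter was not tested. Neither the interferon response core GAAANNGAA (8.56% of promoters) nor the PU.1 site GAGGAAGT (3.2%) was found in the 14 windows. A match describes letters in a window and is no evidence that a factor bound there.

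Library totals ran from 26618029 to 77570149 counts, at which 3 counts correspond to 0.0387 to 0.113 CPM (counts per 1000000 counts of a library). CPM values here are scaled by edgeR's TMM factors. Epor, the gene that defines the EpoR fractions and the knockout, checked the labels: it stood at 14 and 17.2 CPM in EpoR+ and at 0.101 and 0.327 CPM in EpoR- libraries. In the third table it was low even in controls, with 1, 0 and 6 counts in spleen controls and 24, 28 and 4 in lymph node controls, against 0, 2 and 0 in spleen cKO and 0 in all 3 lymph node cKO libraries. The sort genes gave a mixed check. Xcr1 was at 409 CPM or more in every library of the first and second tables, but at 76.8 to 108 CPM in the spleen and 19.3 to 32.3 CPM in the lymph node libraries. Sirpa, a cDC2 and macrophage gene, stood at 1845 and 1734 CPM in the EpoR+ libraries and at 40.0 CPM or less in all others. Ccr7 was at 3800 to 5703 CPM in the third table and overlapped between the tissues in both genotypes. Cd8a was at 286 CPM or more in the first and second tables. In the third, where no CD8a gate was named, it was at 876 to 1194 CPM in spleen and 122 to 199 CPM in lymph node.

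Within a library, the factors kept much the same order of level per exon length (CPM per kilobase of exon, RPKM). Id2, an inhibitor of E proteins, led in 7 of the 8 groups, from a mean of 291 RPKM in EpoR+ to 1590 RPKM in spleen cKO cells. Irf8 led in EpoR- cells, at 463 RPKM against 284 RPKM for Id2. Irf4 and Zeb2 were the 2 lowest in every group. Zeb2 came last at means of 0.195 to 0.813 RPKM in 7 groups, whereas in EpoR+ cells it reached 9.36 RPKM and stood above Irf4 at 3.46 RPKM. Batf3 was the fourth gene in the untreated, TLI/ATS and EpoR- groups and second in all 4 groups of the third table, where its mean was 215 to 475 RPKM. Neighbours whose libraries overlapped, and whose order is therefore not settled, included Id2 and Irf8 in TLI/ATS and EpoR+ cells, Irf8 and Spi1 in spleen of both genotypes and in control lymph node, and Zbtb46 and Nfil3 in untreated, TLI/ATS, EpoR- and lymph node cells.

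**Figure D1:**
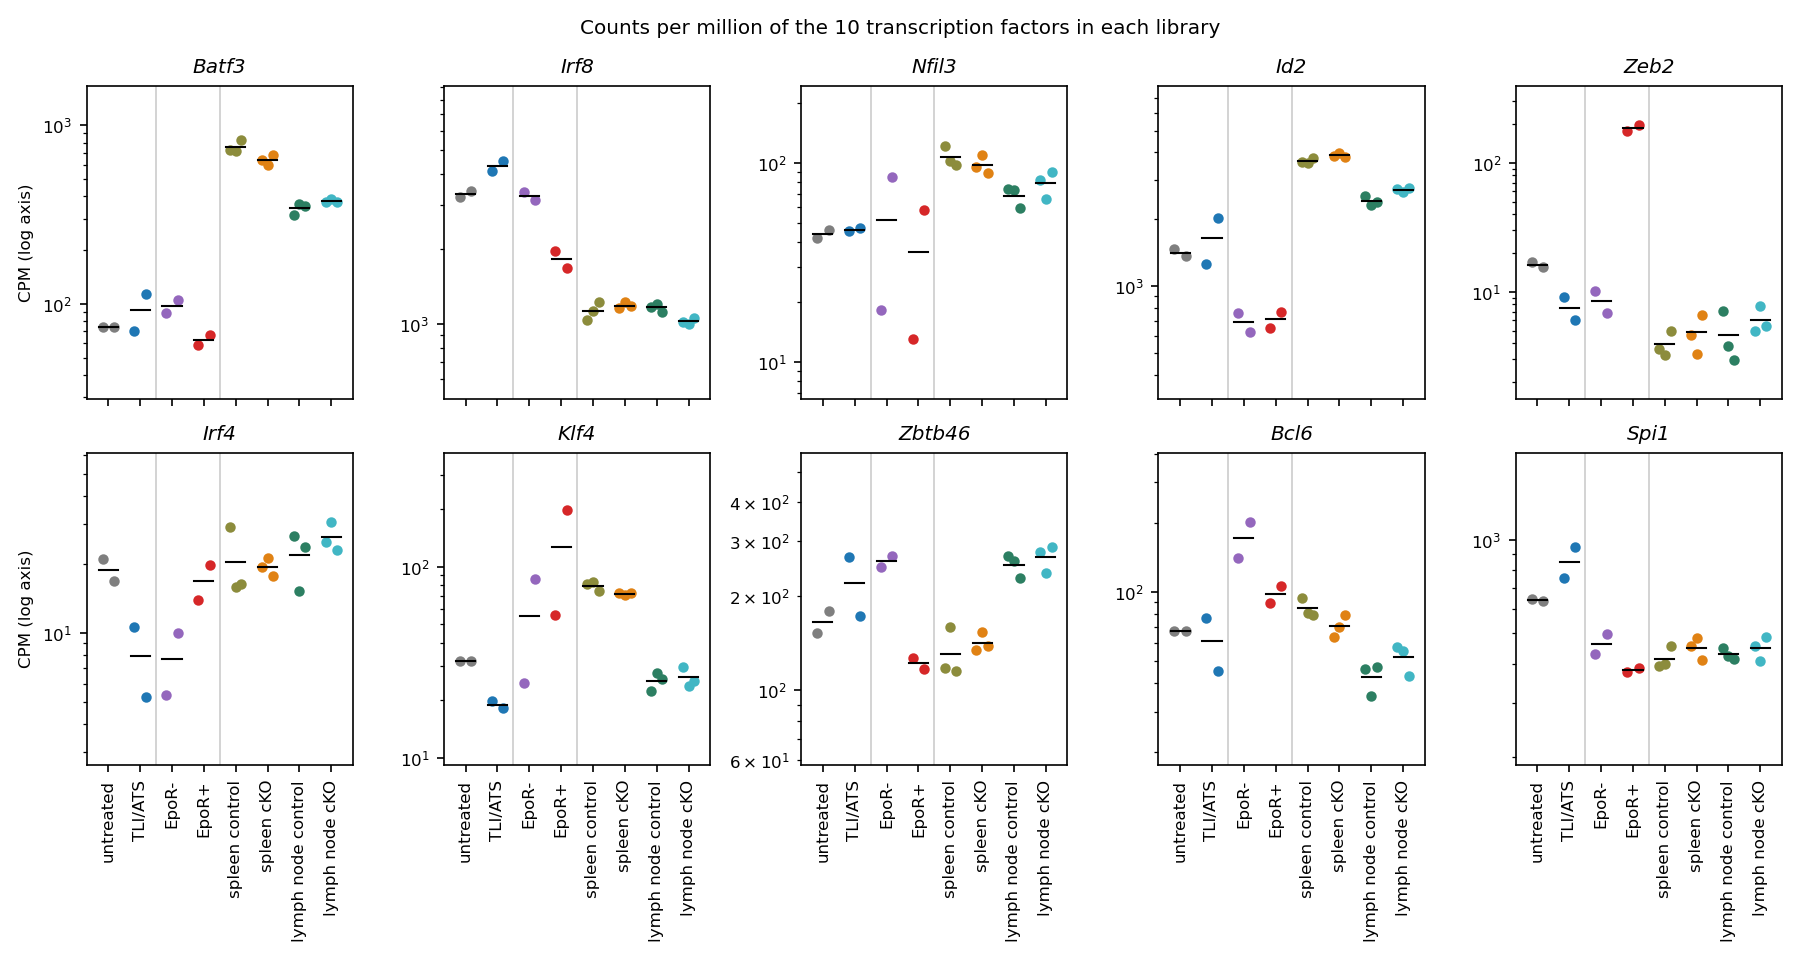
Level of each transcription factor gene in every library. Each panel gives CPM (TMM-scaled, log axis) for 1 gene, points are libraries (2 or 3 per group), black lines are group means, and grey vertical lines part the 3 tables, between which no comparison is made. Zeb2 stands at 176 and 197 CPM in EpoR+ cells, above the 10.1 and 6.81 CPM of EpoR- cells.

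After TLI/ATS, the core cDC1 factors Irf8, Batf3, Nfil3 and Id2 showed no change past the threshold, and the factors of other fates, Zeb2, Irf4 and Klf4, lay lower in both treated libraries than in both untreated ones without passing it either. Irf8 had 4126 and 4534 CPM after TLI/ATS against 3240 and 3415 CPM untreated, groups that did not overlap. Its log2 fold change was 0.38 ± 0.15 (SE), with a Benjamini-Hochberg adjusted p of 0.329 by edgeR's quasi-likelihood test. Batf3, the AP-1 family partner of Irf8, had 70.4 and 114 CPM against 74.2 and 73.9 CPM, so the treated pair lay on both sides of the untreated one. Nfil3 was at 45.4 and 46.9 CPM against 41.9 and 46.3 CPM, and Id2 at 1257 and 2029 CPM against 1464 and 1366 CPM. Both overlapped.

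Zeb2, a repressor that promotes plasmacytoid and monocyte fates, had 9.03 and 6.05 CPM after TLI/ATS and 16.9 and 15.6 CPM untreated. The difference was -1.10 ± 0.27 on the log2 scale, with an adjusted p of 0.137 by edgeR's quasi-likelihood test. Irf4, needed for cDC2 function, had 10.6 and 5.25 CPM against 21.0 and 16.9 CPM (log2 fold change -1.26 ± 0.39). Its adjusted p was 0.217 in the same edgeR test. Klf4, a factor of monocytes and of some cDC2s, had 19.7 and 18.2 CPM against 32.1 CPM in both untreated libraries, a difference of -0.76 ± 0.18 with an edgeR adjusted p of 0.127. For these 3 genes the groups did not overlap, at levels that were low throughout. How many of all genes lay apart in this way was not counted, and 2 libraries against 2 cannot give an exact permutation p below 0.333.

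The remaining factors spread widely after TLI/ATS. Zbtb46 had 267 and 173 CPM against 152 and 179 CPM, and Bcl6 had 77.3 and 45.0 CPM against 67.4 and 67.8 CPM. Spi1 was higher in both treated libraries, at 751 and 949 CPM against 645 and 634 CPM (0.41 ± 0.18, edgeR adjusted p 0.377). In all, 0 of the 10 factors passed an adjusted p of 0.05 in edgeR's test, in which 2.70% of 17236 genes did and 2705 genes had an unadjusted p under 0.05. DESeq2 called 3 of the factors lower (Zeb2, Irf4 and Klf4, adjusted p of 0.0109, 0.0233 and 0.0157), in a fit that called 8.2% of genes. Without TLI/ATS library 1, the log2 fold changes of Zeb2, Irf4 and Klf4 were -1.42, -1.85 and -0.81. Without TLI/ATS library 2 they were -0.84, -0.84 and -0.70. The spread in these fits came from the 2 untreated libraries alone. The median over the 10 was 0.14 on the log2 scale, beside 0.02 over all genes tested.

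Other regulators moved in the same libraries. Of 11 E protein, Id protein and plasmacytoid genes, 4 fell and none rose: Id3, another Id protein of lymphocytes (log2 fold change -4.60 ± 0.29), Spib, a plasmacytoid and B cell factor (-3.20 ± 0.32), Runx2 (-2.65 ± 0.23) and Tcf4, the E protein of plasmacytoid cells (-1.44 ± 0.16). Their edgeR adjusted p-values ran from 0.00577 for Id3 to 0.0214 for Tcf4. Of 10 macrophage transcription factors, 3 rose, among them the cholesterol sensor Nr1h3 by 2.58 ± 0.31 and Spic by 2.12 ± 0.20. None of 22 partner factors of dendritic cell lineage and maturation passed. Tcf4 and Spic are also in the plasmacytoid and macrophage marker lists. Marker genes of other cells moved with these values. All 9 T cell markers fell, from a summed 422 to 423 CPM to 16.1 to 20.7 CPM, all 9 B cell markers fell, from 578 to 595 CPM to 43.8 to 49.2 CPM, and 7 of 9 plasmacytoid markers fell, from 1089 to 1101 CPM to 237 to 263 CPM. Of 15 macrophage markers 10 rose, from a summed 203 to 222 CPM to 1137 to 1661 CPM. No gene of these 4 lists was at 0 in all libraries of either group. Of 12 cDC2 markers 2 fell and none rose, with a median of -1.12 and a summed 121 to 162 CPM after TLI/ATS against 271 to 289 CPM untreated. Of 6 neutrophil and monocyte markers tested 3 rose and 1 fell, while their summed level stood at 31.1 to 31.8 CPM against 188 to 191 CPM, with Elane at 0 in both groups and Retnlg in untreated cells. Of 8 erythroid markers 7 rose (1426 to 1458 CPM against 205 to 214 CPM), and 1 of 12 cDC1 markers rose (8379 to 9274 CPM against 5899 to 5982 CPM). What part cells of these types had in the values of Zeb2, Irf4 and Klf4 was not tested, and in bulk RNA fewer cells of a type and less RNA per cell cannot be told apart.

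Between the EpoR fractions the factors parted. Zeb2 was 22.1-fold higher in EpoR+ than in EpoR- cells, while Zbtb46, Irf8 and Batf3 were lower by factors of 2.12, 1.79 and 1.54, all from the mean CPM of 2 libraries a group. Zeb2 had 176 and 197 CPM in EpoR+ and 10.1 and 6.81 CPM in EpoR- libraries. Its log2 fold change was 4.47 ± 0.23, with an adjusted p of 0.00027 by edgeR's quasi-likelihood test. Among the 10 factors none other had so wide a gap between the fractions.

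The cDC1 core lay on the other side. Irf8 had 1970 and 1675 CPM in EpoR+ against 3397 and 3141 CPM in EpoR- libraries, with no overlap (-0.84 ± 0.12, edgeR adjusted p 0.00732). Batf3 had 58.9 and 67.2 CPM against 89.1 and 105 CPM, again apart (-0.62 ± 0.14, edgeR adjusted p 0.0354). The Batf3 call was lost when EpoR+ library 1, EpoR+ library 2 or EpoR- library 2 was left out, with edgeR adjusted p-values of 0.189, 0.0868 and 0.0835. Nfil3 had 13.1 and 58.2 CPM in EpoR+ and 18.3 and 85.2 CPM in EpoR- libraries, high in the libraries numbered 2 of both fractions (-0.54 ± 1.14). Its groups overlapped, although EpoR+ was the lower at each number. Id2 overlapped, at 651 and 766 CPM against 758 and 625 CPM (0.03 ± 0.14).

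Of the factors of other fates, Irf4 had 14 and 19.9 CPM in EpoR+ and 5.37 and 10.0 CPM in EpoR- libraries, which did not overlap (1.15 ± 0.36, edgeR adjusted p 0.0981). Klf4 was again high in the libraries numbered 2, at 56.1 and 197 CPM in EpoR+ and 24.5 and 85.9 CPM in EpoR- libraries (1.20 ± 0.97). Its groups overlapped, although EpoR+ was the higher at each number.

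Zbtb46, the marker of the conventional lineage, had 127 and 117 CPM in EpoR+ and 248 and 269 CPM in EpoR- libraries (-1.08 ± 0.11, edgeR adjusted p 0.00254). Bcl6, a repressor also known from germinal centre cells, had 89.0 and 106 CPM against 140 and 202 CPM. These did not overlap, and the edgeR adjusted p for -0.81 ± 0.21 was 0.0562, just above the threshold of 0.05. Bcl6 and Irf4 both passed in DESeq2 (adjusted p 0.00163 and 0.0265) and in edgeR with no filter on low counts (adjusted p 0.0126 and 0.0343). Bcl6 also passed without EpoR- library 1 (edgeR adjusted p 0.00246), and Irf4 without EpoR- library 2 (edgeR adjusted p 0.00432). Spi1 had 377 and 388 CPM against 428 and 498 CPM (-0.28 ± 0.11, edgeR adjusted p 0.179).

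In total 4 of 10 factors passed by edgeR's test, where 16.7% of 15627 genes did. DESeq2 called 6 of 10, in a fit that called 22.5% of genes. The 1 higher factor stood against 11.9% of genes higher, and the 3 lower factors against 4.75% of genes lower. The median over the 10 was -0.41 on the log2 scale, beside 0.02 over all genes. With a replicate block, which pairs libraries of the same number, edgeR called 9 of 10 factors, in a fit that called 34.2% of genes. The added calls were Irf4 and Klf4, higher, and Nfil3, Bcl6 and Spi1, lower. Whether the libraries were paired is not given in the labels.

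**Figure D2:**
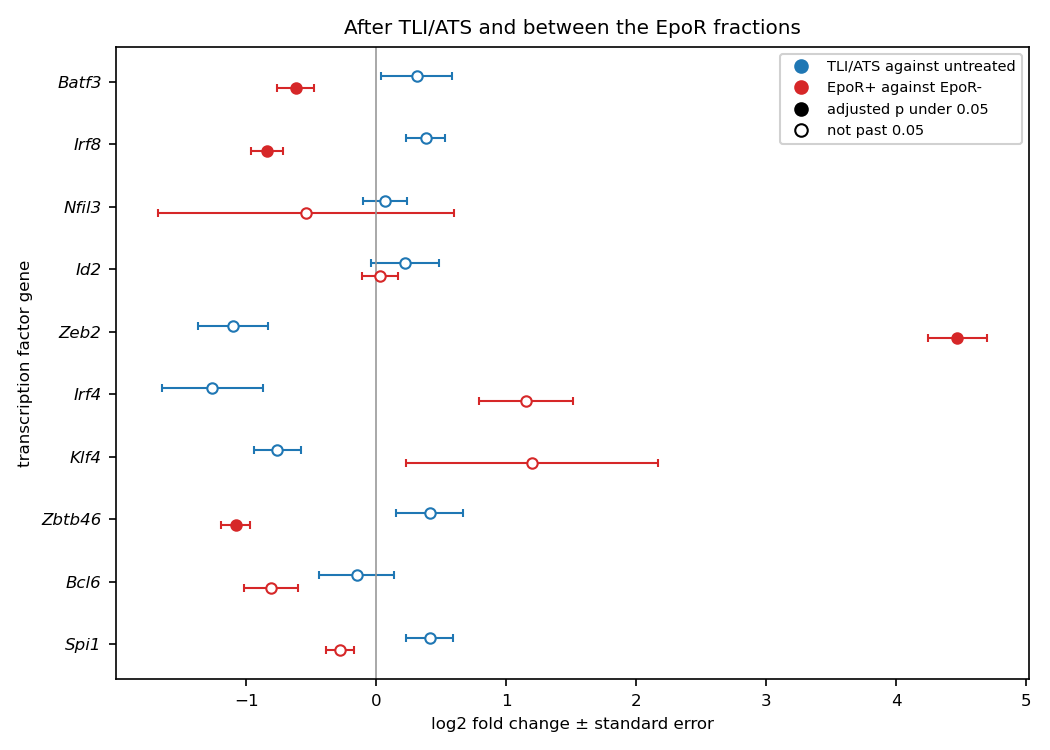
Log2 fold change of each factor after TLI/ATS (blue) and between the EpoR fractions (red), with standard errors from edgeR's quasi-likelihood fits of 2 libraries against 2. Filled points passed an adjusted p of 0.05: Zeb2 at 4.47, Batf3 at -0.62, Irf8 at -0.84 and Zbtb46 at -1.08, all between the EpoR fractions.

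The partners of these factors followed no single direction. Of 22 lineage and maturation partners, 4 rose in EpoR+ cells, among them Cebpb (3.42 ± 0.45) and Cebpa (1.21 ± 0.15), factors of monocytes and granulocytes, and Batf2 (1.89 ± 0.36), a relative of Batf3. A further 3 fell: Mycl (-1.06 ± 0.15), a Myc family gene used by cDC1s, Zfp366 (-0.97 ± 0.11), known as DC-SCRIPT, and Rbpj (-0.95 ± 0.09), the effector of Notch. Of 11 E protein, Id protein and plasmacytoid genes, Tcf4 rose by 0.78 ± 0.16, while Cbfa2t3 (-0.96 ± 0.09), Zeb1 (-0.86 ± 0.13), the close relative of Zeb2, and Bcl11a (-0.69 ± 0.11) fell. Of 10 macrophage transcription factors 8 rose, among them Spic (6.36 ± 0.24) and Nr1h3 (6.06 ± 0.45).

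Marker levels also differed between the fractions. All 15 macrophage markers rose in EpoR+ cells, with a median log2 fold change of 6.51 and a summed level of 24146 to 24553 CPM against 317 to 335 CPM in EpoR- cells. Of 12 cDC1 markers 11 fell, with a median of -1.24 and a summed 6522 to 7683 CPM against 14489 to 15839 CPM. No macrophage or cDC1 marker was at 0 in all libraries of either fraction. Of 11 cDC2 markers tested 7 rose and 1 fell, with a median of 2.51 and a summed 1904 to 1970 CPM against 101 to 119 CPM, and S100a4 was at 0 in EpoR- cells. All 8 erythroid markers rose, to a summed 1632 to 2025 CPM against 157 to 253 CPM. The cDC1 markers fell by a median that was larger than the falls of Irf8, Batf3 and Zbtb46. Scaling libraries to the cDC1 markers instead moved the median of all genes from 0.02 to 1.12 on the log2 scale. With that shift, Irf8, Batf3 and Zbtb46 turned to 0.25, 0.48 and 0.01 on the log2 scale, and Irf8 was then called higher (edgeR adjusted p 0.0224). The part of macrophages, cDC2s or erythroid cells, or of RNA from them, in the levels of Zeb2, Irf4 and Klf4 was not tested.

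**Figure D3:**
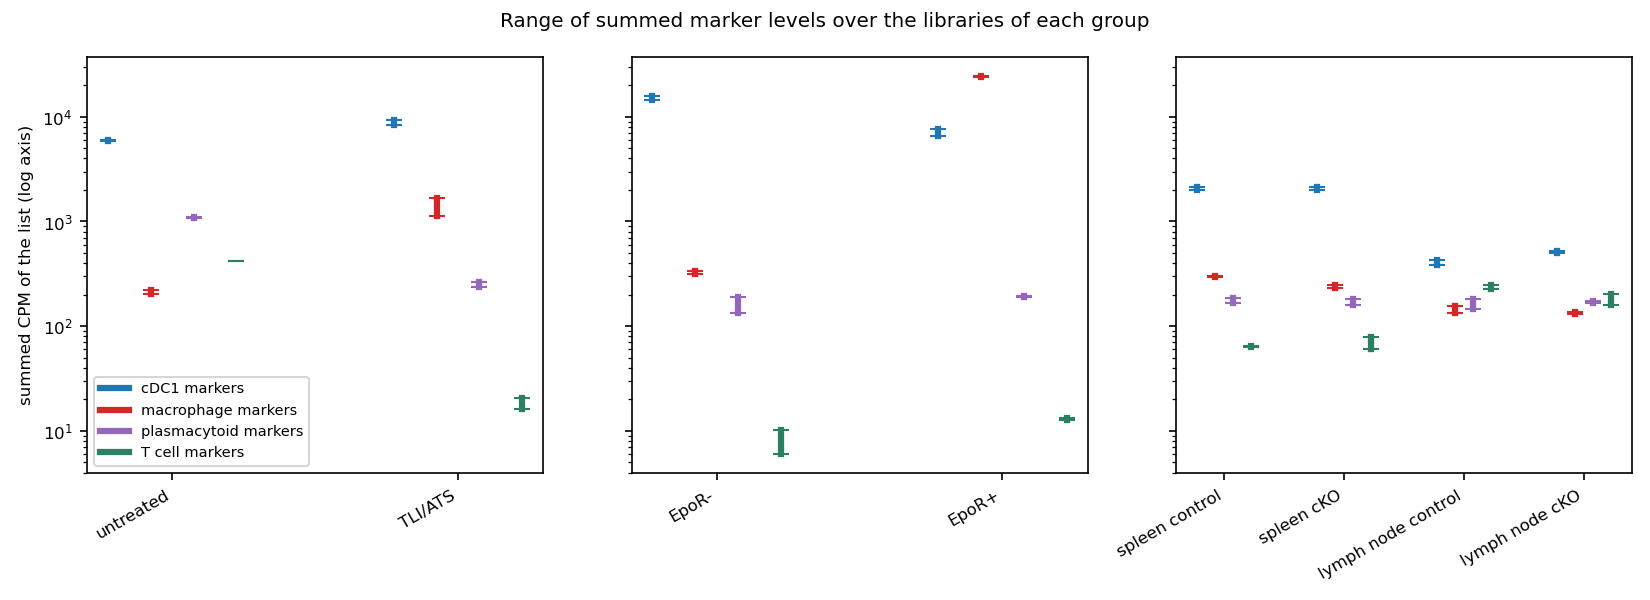
Lowest to highest summed CPM of 4 marker lists over the libraries of each group (log axis, bars span 2 or 3 libraries, each panel is 1 table). Macrophage markers sum to 24146 to 24553 CPM in EpoR+ cells, above the 6522 to 7683 CPM of the cDC1 markers in the same libraries.

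Between cKO and control cells, all 10 factors fell short of the threshold in both tissues, and the fold changes were small. Epor counts of 1, 0 and 6 in control and 0, 2 and 0 in cKO spleen were too low to show the deletion there. In spleen, Batf3 had 638, 597 and 682 CPM in cKO and 724, 721 and 829 CPM in control libraries, which did not overlap. The difference of -0.25 ± 0.08 had an unadjusted p of 0.00743 and an adjusted p of 0.2 by edgeR's quasi-likelihood test. Irf8 had 1156, 1220 and 1180 CPM against 1036, 1127 and 1228 CPM, an overlap (0.07 ± 0.07). Bcl6 had 63.7, 70.2 and 79.4 CPM in cKO and 93.7, 80.7 and 79.6 CPM in control spleen (-0.25 ± 0.14), apart by a narrow gap between 79.4 and 79.6 CPM. The log2 fold changes of the other 7 factors ran from -0.14 for Klf4 to 0.30 for Zeb2. Among these, Klf4 (-0.14 ± 0.12) and Id2 (0.08 ± 0.06) also did not overlap between genotypes, with edgeR adjusted p-values of 0.675 and 0.563. The share of all genes that lay apart in this way was not counted. By edgeR's test 0 of 10 factors and 0.611% of 17362 genes passed, with 2255 genes at an unadjusted p under 0.05, and DESeq2 also called 0 of 10.

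In lymph node, Batf3 stood the other way, with 372, 384 and 371 CPM in cKO against 315, 361 and 353 CPM in control libraries (0.13 ± 0.08, edgeR adjusted p 0.825). Irf8 had 1020, 1001 and 1054 CPM in cKO, all below the 1173, 1204 and 1116 CPM of the controls (-0.18 ± 0.07, edgeR adjusted p 0.519). Id2 had 2733, 2658 and 2758 CPM against 2532, 2321 and 2403 CPM (0.17 ± 0.06, edgeR adjusted p 0.384). These 3 factors did not overlap between genotypes, and their fold changes were at most 1.14. How many of all genes lay apart in this way was not counted in either tissue, and 3 libraries against 3 cannot give an exact permutation p below 0.1. The log2 fold changes of the other 7 factors ran from 0.06 for Klf4 to 0.39 for Zeb2. Zeb2 was low in both, at 4.97 to 7.70 CPM in cKO and 2.97 to 7.05 CPM in controls. Again 0 of 10 factors passed edgeR's test, beside 0.455% of genes and 1304 genes at an unadjusted p under 0.05, and DESeq2 called 0 of 10.

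Whether the deletion acted differently in the tissues was tested as an interaction. For Batf3 the effect in lymph node minus that in spleen was 0.38 ± 0.11, with an unadjusted p of 0.00435 and an adjusted p of 0.184 by edgeR's test. It was 0.53 ± 0.20 for Bcl6 and -0.25 ± 0.10 for Irf8 (edgeR adjusted p 0.289 and 0.306). None of the 10 factors passed, beside 0.317% of genes and 2173 genes at an unadjusted p under 0.05, and DESeq2 called 0 of 10. Among the partner factors, Nr4a3, an immediate-early nuclear receptor of migrating dendritic cells, and the NF-kB subunit Rel did differ, by 1.08 ± 0.21 and 0.76 ± 0.12 (edgeR adjusted p 0.037 and 0.011). Both rose in cKO lymph node, Nr4a3 by 0.85 ± 0.15 and Rel by 0.48 ± 0.09. In spleen, the macrophage factor Spic fell by 0.76 ± 0.15 in cKO (edgeR adjusted p 0.0326), and summed macrophage markers were at 230 to 246 CPM in cKO against 297 to 301 CPM in controls. Summed plasma cell markers stood at 2455 to 2681 CPM in cKO against 1165 to 1226 CPM in control spleen, with 2 of 6 higher by test. Of 12 cDC1 markers 2 rose in cKO in each tissue, Cd8a among them in lymph node (0.51 ± 0.09, edgeR adjusted p 0.00993). Their summed level was 501 to 527 CPM in cKO against 388 to 428 CPM in control lymph node, and 2015 to 2126 CPM against 1978 to 2153 CPM in spleen. The part of any of these in the values of the factors was not tested.

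Ratios of 2 factors within a library do not depend on depth or scaling. For 1 of them the genotypes lay apart in both tissues, in opposite directions. The log2 ratio of Batf3 to Irf8 was -0.86, -1.03 and -0.79 in cKO spleen against -0.52, -0.64 and -0.57 in control spleen. In lymph node it was -1.46, -1.38 and -1.51 in cKO against -1.90, -1.74 and -1.66 in controls. Every cKO library of spleen lay below every control there, and every cKO library of lymph node lay above every control there. The effects were -0.32 and 0.32. A two-sided exact permutation test in either tissue gave p = 0.1, the smallest that 3 libraries against 3 allow, and an adjusted p of 0.3 over 24 comparisons. The difference of the effects was 0.63, and it lay between 0.56 and 0.69 when any 1 library was left out. Genotypes were permuted within each tissue only after these values were seen. The exact p was 0.005, or 0.02 adjusted over 4 ratios, but libraries set apart in opposite directions can give no other value, since 0.005 is the smallest that the 400 arrangements allow. The p therefore restates the separation and adds no support to it. For Irf8 to Irf4, Irf8 to Spi1 and Id2 to Zeb2 the same exact permutation test of the difference gave adjusted p-values of 0.387, 0.32 and 0.815. Irf8 to Irf4 also had effects of opposite sign, -0.47 in lymph node and 0.08 in spleen, but its genotypes overlapped in both tissues.

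Irf8 to Irf4 and Id2 to Zeb2 set the groups of the first and second tables apart by larger steps. Irf8 to Spi1 did not. It differed by -0.02 after TLI/ATS, where the groups overlapped, and by -0.58 between the EpoR fractions. Irf8 to Irf4, often read as a balance of cDC1 against cDC2 factors, was 8.60 and 9.75 on the log2 scale after TLI/ATS against 7.27 and 7.65 untreated. It was 7.13 and 6.39 in EpoR+ against 9.30 and 8.29 in EpoR- cells. Id2 to Zeb2 was 1.88 and 1.96 in EpoR+ against 6.23 and 6.52 in EpoR- cells. None of the groups given for Irf8 to Irf4 and Id2 to Zeb2 overlapped, but 2 libraries against 2 cannot give an exact permutation p below 0.333. Across the third table Id2 to Zeb2 had group means of 8.84 to 9.87.

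**Figure D4:**
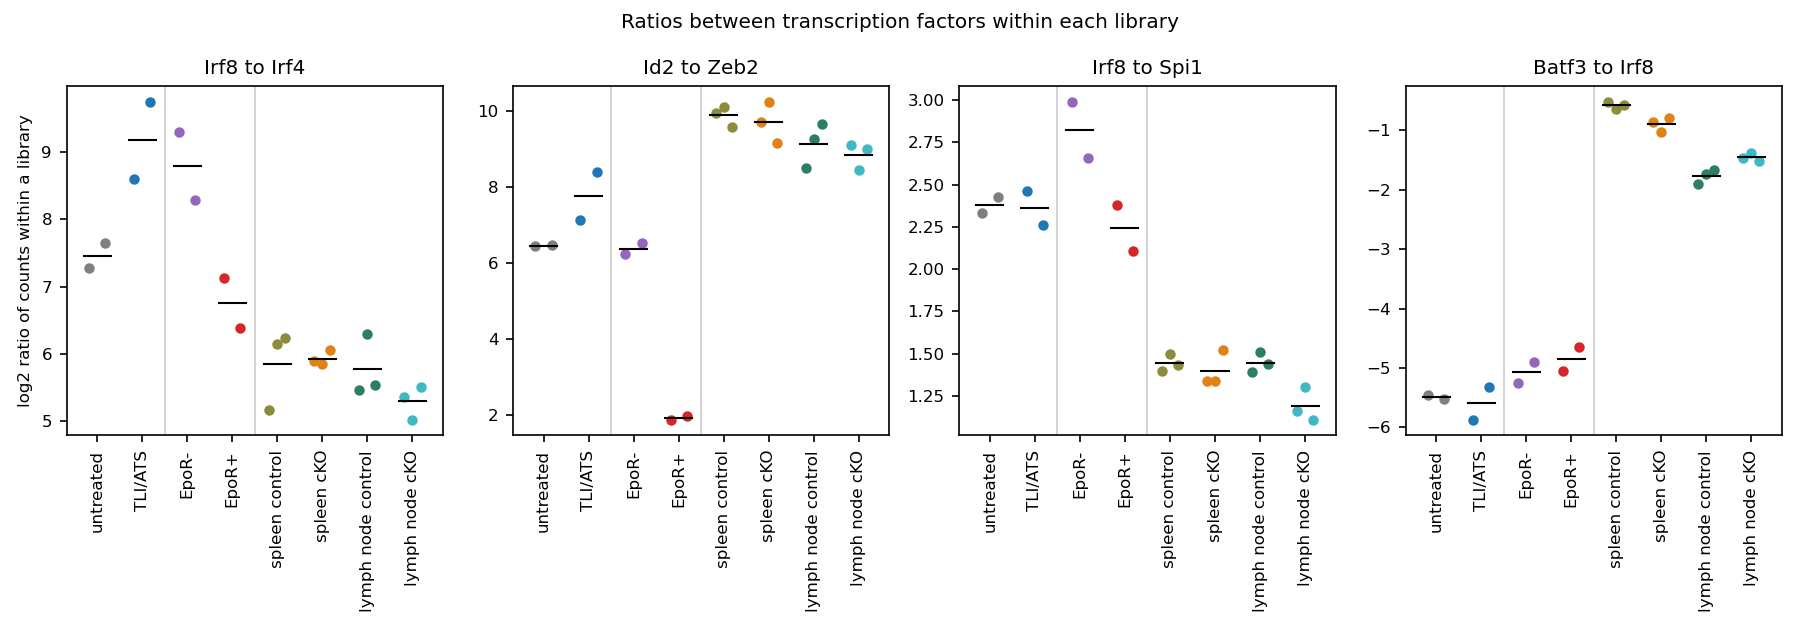
Log2 ratio of the counts of 2 factors within each library, for 4 ratios. Points are libraries, black lines are group means, and grey vertical lines part the tables. The Batf3 to Irf8 ratio has means of -0.58 and -0.89 in control and cKO spleen and of -1.77 and -1.45 in control and cKO lymph node.

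Between the tissues, in CCR7+ spleen cells and migratory lymph node cells of control mice, 5 of the 10 factors were lower in lymph node and Zbtb46 was higher. Klf4 fell most, from 81.0, 82.8 and 74.1 CPM in spleen to 22.3, 27.7 and 25.7 CPM in lymph node (-1.65 ± 0.12, edgeR adjusted p 4.31e-08). Batf3 had 724, 721 and 829 CPM in spleen and 315, 361 and 353 CPM in lymph node (-1.14 ± 0.08, edgeR adjusted p 3.41e-08). Bcl6 had 93.7, 80.7 and 79.6 CPM and 45.9, 35.0 and 47.0 CPM (-0.99 ± 0.14, edgeR adjusted p 5.06e-05). The libraries of the tissues did not overlap for any of these genes.

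Nfil3 and Id2 fell as well. Nfil3 went from 122, 103 and 98.0 CPM in spleen to 74.1, 72.8 and 59.2 CPM in lymph node (-0.65 ± 0.13, edgeR adjusted p 0.00115). Id2 went from 3609, 3581 and 3773 CPM to 2532, 2321 and 2403 CPM (-0.60 ± 0.06, edgeR adjusted p 7.21e-07). Zbtb46 rose from 118, 159 and 115 CPM to 269, 259 and 229 CPM (0.95 ± 0.12, edgeR adjusted p 1.67e-05). Irf8, the partner of Batf3, overlapped and did not pass the test, at 1036, 1127 and 1228 CPM in spleen and 1173, 1204 and 1116 CPM in lymph node. Spi1 (0.05 ± 0.09), Irf4 (0.10 ± 0.24) and Zeb2 (0.22 ± 0.38) overlapped between the tissues.

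In all 6 of 10 factors passed edgeR's test in controls, beside 41.3% of 17362 genes. The 1 higher factor stood beside 21.0% of genes higher and the 5 lower factors beside 20.3% of genes lower. The median over the factors was -0.28, beside -0.01 over all genes. Scaling to total counts moved the median of all genes from -0.01 to 0.279 and also called Irf8 and Spi1 higher, each by 0.34 on the log2 scale (edgeR adjusted p 0.000331 and 0.00218). The split of all called genes then went from 3651 higher and 3518 lower to 5273 higher and 2408 lower.

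In cKO mice 5 of the 10 factors were again lower in lymph node and Zbtb46 was higher. The log2 fold change of lymph node against spleen was -1.45 ± 0.12 for Klf4, -0.77 ± 0.08 for Batf3, -0.51 ± 0.06 for Id2 and 0.91 ± 0.12 for Zbtb46, with edgeR adjusted p-values of 2.41e-07, 3.28e-06, 5.23e-06 and 3.74e-05. Bcl6 (-0.46 ± 0.14, edgeR adjusted p 0.0238) and Irf8 (-0.21 ± 0.07, edgeR adjusted p 0.0321) also passed. The Irf8 call was lost when any 1 of the 6 cKO libraries was left out (edgeR adjusted p 0.0609 to 0.163) or with no filter on low counts (edgeR adjusted p 0.15), and its direction turned to 0.03 with scaling to total counts. The Bcl6 call was lost without spleen cKO library 2, spleen cKO library 3 or lymph node cKO library 3 (edgeR adjusted p 0.0678, 0.134 and 0.125) and with scaling to total counts (-0.21, edgeR adjusted p 0.34), which also called Spi1 higher (0.24, edgeR adjusted p 0.0252). Nfil3 did not pass (-0.31 ± 0.13, edgeR adjusted p 0.0999). The count was again 6 of 10, beside 29.4% of genes, 1 higher beside 14.1% and 5 lower beside 15.3%.

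**Figure D5:**
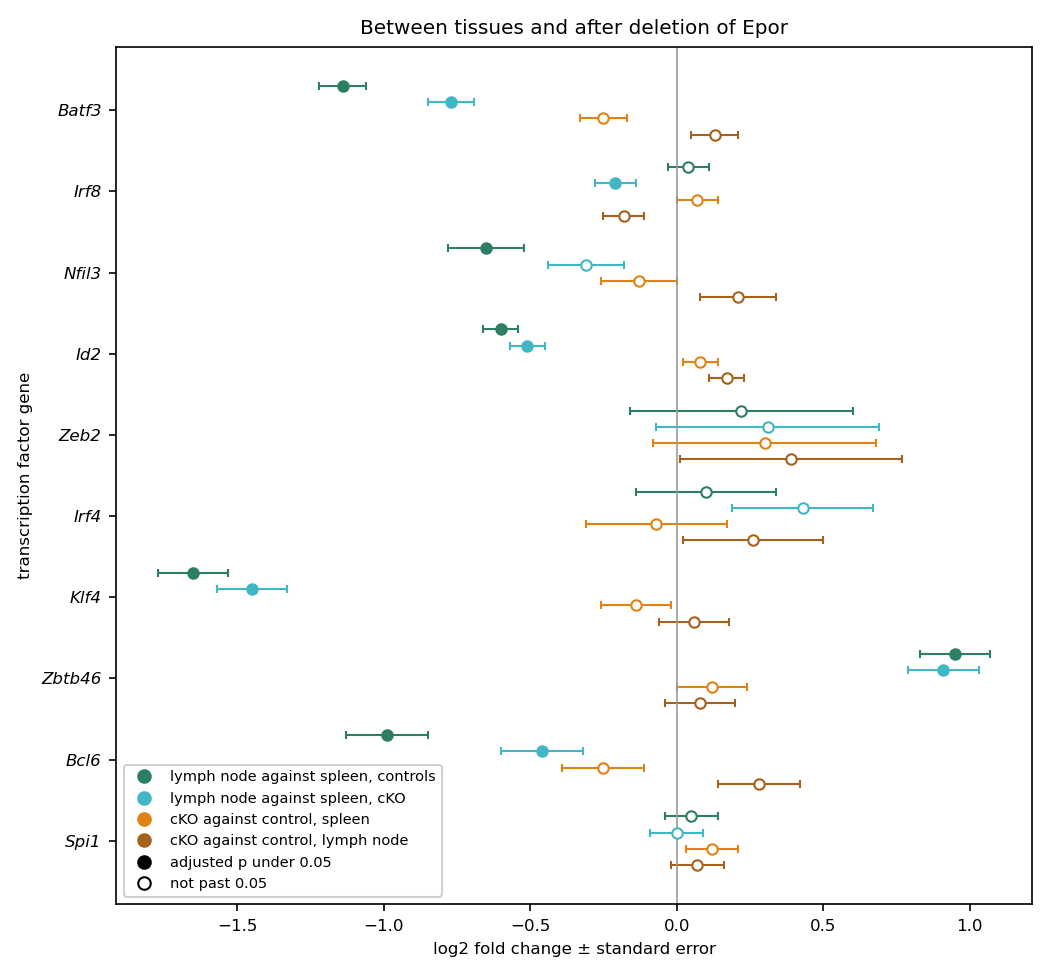
Log2 fold change of each factor between tissues and after deletion of Epor, with standard errors from 1 edgeR fit of 12 libraries. Filled points passed an adjusted p of 0.05. All points of the cKO comparisons are open, and those of lymph node against spleen reach -1.65 for Klf4 and 0.95 for Zbtb46 in controls.

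Partner factors of maturation differed between the tissues too. In controls, 9 of 22 partners fell in lymph node, led by Nr4a3 (-3.53 ± 0.16), Rel (-1.89 ± 0.09) and the Batf3 relative Batf (-1.75 ± 0.10). A further 4 rose, led by Batf2 (3.01 ± 0.64), Stat3 (0.64 ± 0.08) and Stat5b (0.58 ± 0.12), with edgeR adjusted p-values from 2.82e-10 for Nr4a3 to 0.00152 for Batf2. Of 11 E protein, Id protein and plasmacytoid genes, Tcf3 (1.44 ± 0.14), Id3 (1.17 ± 0.37) and Tcf4 (0.88 ± 0.23) rose and Runx2 (-1.28 ± 0.12), Cbfa2t3 (-0.55 ± 0.10) and Irf7 (-0.45 ± 0.15) fell. Of 12 cDC1 markers 10 fell, with a median of -1.71 in controls and -1.89 in cKO. Their summed level was 1978 to 2153 CPM in control spleen and 388 to 428 CPM in control lymph node. All 9 T cell markers were higher in control lymph node, at a summed 229 to 246 CPM against 63.6 to 65.0 CPM. Summed erythroid markers were at 0.653 to 1.23 CPM against 91.7 to 112 CPM in spleen, with Hba-a2, Hbb-bs and Hbb-bt among those at 0 in all 3 control lymph node libraries. Summed plasma cell markers were at 92.0 to 94.3 CPM against 1165 to 1226 CPM. Of 7 neutrophil and monocyte markers tested 5 fell and 1 rose, with a median of -4.82 and a summed level of at most 9.65 CPM against at least 30.2 CPM in spleen. Of 11 CCR7-linked maturation genes 6 rose and 2 fell in control lymph node, with a median of 0.23. Their summed level was 21740 to 21926 CPM against 15507 to 15891 CPM in control spleen. The part of these cells, of maturation and of any change in gate, in the factor levels was not tested. With libraries scaled to the cDC1 markers, the median of all genes moved from -0.01 to 2.28 in controls, and all 10 factors were called higher in lymph node.

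Genes whose levels ran closest to those of a factor were found among 6705 genes, as the smallest root mean square difference in log2 CPM over the 20 libraries, each gene centred within its table. The 20 libraries differ in sort gate and depth, and the likeness is a description. For Batf3 the nearest were Atpif1, Baz1a and Psma3 (0.12, 0.12 and 0.13, where Batf3 itself varied by 0.43). For Irf8 they were Tes, Glrx and Ttc39a (0.10 to 0.11, against 0.23), and for Id2 they were Sod2, Vamp8 and Cox6a1 (0.10 to 0.11, against 0.26). Klf4 lay nearest to Nfkbiz, Rilpl2 and Bhlhe40 (0.21 to 0.25, against 0.80) and Nfil3 to Nfkbid, Zc3h7a and Tspoap1 (0.17 to 0.24, against 0.55). Bcl6 lay nearest to Galnt7, Rfx7 and Gna13 (0.13 to 0.17, against 0.40) and Zbtb46 to Sh3bp4, Limd1 and Prr5l (0.16 to 0.17, against 0.47). For Zeb2, Fcer1g, Sh3bp5 and Fabp5 came closest among the genes searched, at 0.42 to 0.48, against 1.10 for Zeb2 itself. Zeb2 lay below the minimum level of the search in the third table, at group means of 3.95 to 6.03 CPM. Genes as low as Zeb2 there were not searched, so the search cannot show whether Zeb2 has a nearer neighbour.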

How the data were processed

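Every value came from raw whole-number counts that the authors deposited, with no normalization, in 3 tables counted separately. Per the submitters' processing notes, GRCm38 was the build, and the tools were HISAT2, SAMtools, StringTie and featureCounts for the first and second tables and HISAT2 2.1.0 with featureCounts 2.0.8 for the third one. Per the file headers, the second table came from featureCounts 2.0.3, and in the second table and the next one each read of a pair was counted singly and strand was not used, so that 1 fragment can give 2 counts. Exon lengths, deposited beside the counts in these tables and taken from GENCODE vM21 for the first, gave RPKM. Columns of the second table are coded P and N and were read as EpoR+ and EpoR-. Exons of Zeb2 and Bcl6 share 3.3% and 0.313% of their bases with other genes, those of the other 8 factors none.

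Each table was fitted alone with edgeR 4.0.16, under R 4.3.3 and limma 3.58.1 (filterByExpr with minimum count 10 and total 15, TMM, robust quasi-likelihood test, Benjamini-Hochberg over all genes tested, threshold 0.05, no fold limit), after a test on simulated data. The first 2 fits used 4 libraries each and the last all 12, with 1 mean per group. All 10 factors passed the filter in each table. DESeq2 1.42.0, no filter, scaling to total counts or to 12 cDC1 markers, fits of 2 groups, a replicate block and leaving out each library were alternatives. Ratios used counts plus 0.5. Libraries of a group differed by more than counting noise (median chi-square per gene 2.43 or more for any pair). Depth limits the low factors Zeb2 and Irf4 most, and floors cover counting error only, since reads carry no molecular identifiers.

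The 10 factors, the other gene lists and the rules were chosen with earlier results of these data known. Named genes were the 10 factors, Epor, Xcr1, Cd8a, Sirpa and Ccr7 where a result stands beside them, at most 3 genes per direction of each other factor list with the largest fold change past the threshold, and the 3 nearest genes of each factor called at least once. Some genes that this rule would name are not reported here. Tcf4 after TLI/ATS lay outside this rule and was named after its value was seen. Samples were grouped by their titles.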

Additional observations from a re-analysis of the deposited data

Results flagged for a closer look

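The log2 ratio of Batf3 to Irf8 differed between cKO and control in opposite directions in the tissues. The cKO effect in lymph node minus that in spleen was 0.63. All 3 cKO libraries lay below all 3 controls in spleen and above them in lymph node. A permutation of the genotypes within the tissues, chosen after these values were seen, gave an exact p of 0.005 (0.02 adjusted over 4 ratios), which is the smallest it can give and which this separation fixes, so it adds no support. By edgeR's quasi-likelihood test on the single genes, neither Batf3 (0.38 ± 0.11, adjusted p 0.184) nor Irf8 (-0.25 ± 0.10, adjusted p 0.306) passed for the same difference.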

How the results depend on the processing

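Zeb2 was called higher in EpoR+ cells under every alternative run (4.21 to 5.59 on the log2 scale), and no factor was called for cKO against control under any except scaling to the cDC1 markers, while calls between tissues turned with scaling. With DESeq2, the genes called numbered 1414 after TLI/ATS, 549 for cKO in spleen, 177 for cKO in lymph node and 426 for the difference of cKO effects. With DESeq2, the factors called numbered 3 after TLI/ATS. With fits of the 2 groups compared, the genes called numbered 44 for cKO in lymph node. With no filter, the genes called numbered 436 for cKO in spleen, 170 for cKO in lymph node and 364 for the difference of cKO effects. With scaling to the cDC1 markers, the genes called numbered 1564 after TLI/ATS, 10145 for EpoR+ against EpoR-, 68 for cKO in spleen, 1270 for cKO in lymph node, 399 for the difference of cKO effects, 13239 for lymph node against spleen in controls and 12893 for lymph node against spleen in cKO. With scaling to the cDC1 markers, the factors called numbered 3 after TLI/ATS, 1 for cKO in lymph node, 1 for the difference of cKO effects, 10 for lymph node against spleen in controls and 10 for lymph node against spleen in cKO. Scaling to the cDC1 markers also turned the direction of log2 fold changes. After TLI/ATS they became Batf3 -0.24, Irf8 -0.18, Id2 -0.33, Zbtb46 -0.17, Nfil3 -0.50 and Spi1 -0.15. For EpoR+ against EpoR- they became Batf3 0.48, Irf8 0.25, Zbtb46 0.01, Nfil3 0.60, Bcl6 0.29 and Spi1 0.82. For cKO in lymph node they became Batf3 -0.18, Irf4 -0.03, Id2 -0.13, Zbtb46 -0.22, Nfil3 -0.09, Bcl6 -0.01, Spi1 -0.23 and Klf4 -0.24. For the difference of cKO effects they became Id2 -0.20, Zeb2 -0.21 and Klf4 -0.09. For lymph node against spleen in controls they became Batf3 1.16, Id2 1.70, Nfil3 1.65, Bcl6 1.30 and Klf4 0.65. For lymph node against spleen in cKO they became Batf3 1.24, Irf8 1.80, Id2 1.50, Nfil3 1.71, Bcl6 1.55 and Klf4 0.56.

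Other turns of direction were near 0: Nfil3 -0.06 after TLI/ATS and Irf8 0.03 for lymph node against spleen in cKO with scaling to total counts, Id2 -0.00 for EpoR+ against EpoR- with DESeq2, and Spi1 -0.00 for lymph node against spleen in cKO in the fit of 2 groups. Leaving out 1 library turned directions only of effects that had not passed the threshold, whose log2 fold changes then ran as follows. After TLI/ATS Batf3 from -0.07 to 0.62, Id2 from -0.17 to 0.52, Nfil3 from -0.01 to 0.14 and Bcl6 from -0.58 to 0.19. For EpoR+ against EpoR- Id2 from -0.10 to 0.18 and Nfil3 from -1.98 to 0.95. For cKO in spleen Irf4 from -0.20 to 0.29. For cKO in lymph node Klf4 from -0.04 to 0.14. For the difference of cKO effects Irf4 from -0.02 to 0.49, Zbtb46 from -0.22 to 0.04, Zeb2 from -0.15 to 0.53 and Spi1 from -0.13 to 0.02. For lymph node against spleen in controls Irf4 from -0.05 to 0.47 and Zeb2 from -0.21 to 0.47. For lymph node against spleen in cKO Spi1 from -0.06 to 0.08. Without 1 library, the genes called ran from 476 to 4908 after TLI/ATS, from 1454 to 2600 for EpoR+ against EpoR-, from 31 to 379 for cKO in spleen, from 51 to 72 for cKO in lymph node and from 29 to 222 for the difference of cKO effects. Without 1 library, the factors called ran from 0 to 8 after TLI/ATS. The tissue difference of the Id2 to Zeb2 ratio ran from -0.44 to 0.15. Where 1 library of a pair is left out, the lone library is assumed to vary like the other group. The cause of these shifts was not tested.

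The labels number the libraries alike in the groups compared, without saying that a number marks an animal or a day. Same-numbered libraries deviated together only in the EpoR table, with a correlation of 0.424. It was -0.025 in the first table and -0.057 to 0.041 in the third. With 2 libraries per group, numbers 1 and 2 must give the same correlation, so 0.424 is a single value. The main fits took a number as a name in every table, although the EpoR+ and EpoR- libraries may be paired by number. With the replicate block, the genes called numbered 1264 after TLI/ATS, 5347 for EpoR+ against EpoR-, 40 for cKO in spleen and 34 for the difference of cKO effects. The factors called numbered 2 of 10 after TLI/ATS, beside 7.33% of genes, and 9 of 10 for EpoR+ against EpoR-, beside 34.2% of genes. The added calls between the EpoR fractions were Nfil3 (-0.52, edgeR adjusted p 0.00489), Klf4 (1.20, 7.28e-05), Irf4 (1.19, 0.00367), Bcl6 (-0.79, 0.000876) and Spi1 (-0.27, 0.0174). For lymph node against spleen in cKO, Spi1 turned to -0.00 and the Irf8 call was lost (edgeR adjusted p 0.0543) under the block.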
